A study of Bubalus bubalis with 6 samples.

Results

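Zinc finger protein genes were followed on arrays that measured DNA methylation in the sperm of 3 subfertile and 3 high-fertile water buffalo (Bubalus bubalis) bulls. A gene was taken as a member where the array's name for it began with ZNF or ZFP and a digit, or with ZBTB, ZSCAN or ZKSCAN, which gave 151 of the 7932 gene names and 427 of the 177440 probes. The subfertile bulls are numbered 1, 4 and 5 and the high-fertile bulls 2, 3 and 5, and the labels give neither their age nor how fertility was scored. From each bull, DNA of frozen semen was sheared, its methylated fragments were captured with a 5-methylcytosine antibody (meDIP), and the captured DNA (IP, Cy5) was hybridised with the bull's own input DNA (Cy3) on an array aimed at CpG islands and promoters. Values are log2(IP/input) relative to the array's median over all probes, so that 0 is the median probe and a higher value marks more antibody-bound DNA. This value gives no percentage of methylated cytosines, and in bulk sperm DNA a change in some cells and a smaller change in all cells cannot be told apart.

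Zinc finger proteins of the Cys2His2 type read DNA with rows of small domains, each folded round a zinc ion, and they form the largest family of transcription factors in mammals. Many genes of the ZNF group also encode a KRAB domain, which recruits the co-repressor TRIM28 and with it histone and DNA methylation. ZBTB proteins carry a BTB domain for pairing and for binding co-repressors, and ZSCAN and ZKSCAN proteins carry a SCAN domain for pairing. Some members are known for methylated DNA itself: ZFP57 and ZNF445 keep methylation at imprinted genes, and ZBTB33, ZBTB4 and ZBTB38 bind methylated DNA. Of 21 members listed for such roles or for work in germ cells and development, 8 were on the array under these names, and 5 of them had a probe that could be tested (ZBTB7A, ZBTB7B, ZNF143, ZNF521 and ZNF423). ZNF445, ZBTB4 and ZNF703 had probes but none that passed the filter on input signal.

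The names held up in part. Of the 151 names, 117 matched a symbol that RefSeq lists for buffalo (assembly NDDB_SH_1, taken for names only), and 34 did not. ZFP36, ZFP36L1 and ZFP36L2 fit the naming rule but encode CCCH zinc finger proteins that bind AU-rich elements of messenger RNA and speed its decay, so they are given apart below. The linker that joins neighbouring Cys2His2 fingers is encoded by a well known stretch of bases. Read in any of 6 frames over both strands, it was found in 6 of the 427 probes of zinc finger genes (1.41%), in 1 of 19335 other named probes (0.00517%) and in 40 of all 177440 probes (0.0225%). These 6 probes are shown because they hold bases that can encode the linker. Whether they lie in coding sequence was not tested. Capitals mark the 15 bases of the linker, which read on the opposite strand in all but ZNF3. For the probe coordinates, genome build and strand are not given in the sources used here. The series' design text names Bos taurus as the organism of the array, and the zinc finger genes carry chromosome numbers up to 28.
ZBTB11, chr1:47134461-47134520: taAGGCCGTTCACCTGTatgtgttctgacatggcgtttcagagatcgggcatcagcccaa
ZKSCAN1, chr25:38505670-38505729: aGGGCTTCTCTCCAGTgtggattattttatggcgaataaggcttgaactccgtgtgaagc
ZNF192, chr23:30596818-30596877: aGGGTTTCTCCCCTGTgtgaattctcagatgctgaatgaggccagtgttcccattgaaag
ZNF3, chr25:38476633-38476692: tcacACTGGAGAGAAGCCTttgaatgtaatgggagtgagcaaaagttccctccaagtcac
ZNF514, chr11:2208750-2208809: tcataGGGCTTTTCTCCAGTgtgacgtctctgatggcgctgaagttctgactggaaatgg
ZNF596, chr1:161010217-161010276: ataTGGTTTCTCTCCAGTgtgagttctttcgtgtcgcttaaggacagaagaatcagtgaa

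The values below turn on the next probes, in which capitals mark CpGs, the pairs of bases that the antibody can read when methylated. ZNF575 is shown because all 4 of its tested probes moved together, and its probes 5 and 6 share most of their letters.
ZNF575 probe 3, chr18:51473786-51473845: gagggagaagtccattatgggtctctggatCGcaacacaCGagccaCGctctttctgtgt
ZNF575 probe 4, chr18:51473931-51473990: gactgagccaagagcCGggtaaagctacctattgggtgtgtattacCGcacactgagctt
ZNF575 probe 5, chr18:51474255-51474314: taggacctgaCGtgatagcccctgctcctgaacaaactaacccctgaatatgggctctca
ZNF575 probe 6, chr18:51474275-51474334: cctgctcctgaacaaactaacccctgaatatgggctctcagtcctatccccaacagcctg

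ZBTB11, ZNF131 and ZNF143 are shown because their probes did not move together. Probe 1 of ZBTB11 is the linker probe above.
ZBTB11 probe 2, chr1:47138028-47138087: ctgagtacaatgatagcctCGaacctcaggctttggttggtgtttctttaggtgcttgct
ZBTB11 probe 4, chr1:47144037-47144096: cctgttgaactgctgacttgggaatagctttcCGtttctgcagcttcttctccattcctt
ZBTB11 probe 7, chr1:47163451-47163510: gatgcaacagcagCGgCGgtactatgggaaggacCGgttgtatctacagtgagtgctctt
ZNF131 probe 1, chr20:33581204-33581263: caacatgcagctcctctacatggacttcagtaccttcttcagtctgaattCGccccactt
ZNF131 probe 4, chr20:33607194-33607253: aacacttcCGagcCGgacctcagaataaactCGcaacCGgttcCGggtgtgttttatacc
ZNF143 probe 2, chr15:42147079-42147138: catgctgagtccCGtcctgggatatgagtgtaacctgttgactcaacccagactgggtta
ZNF143 probe 3, chr15:42196613-42196672: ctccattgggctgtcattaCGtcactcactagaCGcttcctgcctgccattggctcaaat

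ZBTB7A and ZNF304 are shown because their levels lay above the array median in every bull, and ZNF326 because its lone probe has 3 CpGs and differed widely between scan dates.
ZBTB7A probe 2, chr7:18564732-18564791: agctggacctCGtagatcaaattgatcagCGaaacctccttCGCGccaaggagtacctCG
ZNF304 probe 2, chr18:64785350-64785409: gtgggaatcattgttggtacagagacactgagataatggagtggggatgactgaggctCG
ZNF326 probe 1, chr3:56637057-56637116: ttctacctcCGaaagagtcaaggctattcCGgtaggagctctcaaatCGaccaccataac

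A probe entered the tests if its input DNA gave a signal well above background in each of the 6 bulls, which 170 of the 427 probes of zinc finger genes passed (39.8%, against 38.7% of named probes and 62.4% of all probes). Of the 151 genes, 89 kept at least 1 probe, 62 kept none, and 19 kept at least 3 and form what is called a gene region here, the mean over a gene's tested probes. The ZNF and ZFP names made up 128 of the genes and 14 of the regions, ZBTB 14 genes and 3 regions, ZSCAN and ZKSCAN 6 genes and no region, and the ZFP36 family 3 genes and 2 regions. Signal differed by array: IP was well above background at 65.8%, 30.7% and 56.7% of the zinc finger probes in subfertile bulls 1, 4 and 5, and at 23.9%, 40.0% and 50.8% in high-fertile bulls 2, 3 and 5. The scan dates in the file headers put subfertile bulls 1 and 5 and high-fertile bull 5 on later dates and subfertile bull 4 and high-fertile bulls 2 and 3 on a first date. The median over all tested probes lay at -0.02, -0.10 and -0.01 in the 3 bulls of the later dates, against -0.26, -0.33 and -0.26 in subfertile bull 4 and high-fertile bulls 2 and 3. The header of subfertile bull 1 names another extraction protocol of the scanner software than the other 5 headers. By the barcodes in the headers, the arrays of the first date and that of subfertile bull 1 share a slide. Those of subfertile bull 5 and high-fertile bull 5 are not on it. The parts of slide and protocol in the differences by date were not tested. Except where a mean of the later bulls minus a mean of the first is named, every difference is from a limma fit. Each fit ran over all regions, genes or probes with Benjamini-Hochberg adjustment, and the number of arrays limits its precision. Nothing in the labels says more of the bulls than their number and group, so p-values measure the spread between these 6 samples.

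No zinc finger gene passed the test between subfertile and high-fertile bulls. Of the 19 regions none passed the test between the groups, with the background at 0.0% of 737 regions, and none had an unadjusted p below 0.05 (6 of the 737 did). Differences, subfertile minus high-fertile, lay above 0 in 12 regions and below 0 in 7, with a median of 0.18, which was 0.03 with the scan session as a block. Over all 737 regions the median was 0.08. In no region did the 3 subfertile bulls all lie beyond the 3 high-fertile bulls, against 2.99% of the 737 regions.

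ZNF575 and ZBTB11 had the largest difference between the groups in each direction, and in both the arrays of the first date stood apart from the rest. ZNF575 had 0.42, -0.48 and 0.33 in subfertile bulls 1, 4 and 5 and -0.77, -0.81 and 0.50 in high-fertile bulls 2, 3 and 5. Subfertile bull 4 and high-fertile bulls 2 and 3, all of the first date, were low, and the groups overlapped. The difference was 0.45 ± 0.39 (SE, 3 bulls per group, adjusted p = 1.0 in limma), 0.09 in the fit with a session block and -0.12 among the later arrays alone. At the other end, ZBTB11, a BTB-domain factor needed for mitochondrial function in human cells, had -0.09, 0.90 and -0.35 in subfertile bulls 1, 4 and 5 and 0.53, 1.19 and -0.44 in high-fertile bulls 2, 3 and 5. Its difference of -0.27 ± 0.45 turned to 0.13 with the block and to 0.10 without high-fertile bull 3.

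The 89 genes with at least 1 tested probe gave the same count. None passed the test between the groups, with the background at 0.0% of 4286 genes, and none had an unadjusted p below 0.05 (34 of the 4286 did). No probe of a zinc finger gene passed either, with the background at 0.0% of 110686 probes. An unadjusted p below 0.05 in limma was found at 3 of the 170 and at 2036 of the 110686. In 2 of the 89 genes the groups did not overlap, against 3.85% of all 4286 genes.

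ZNF2 held -0.01, 0.16 and 0.27 in subfertile bulls 1, 4 and 5, all below the 0.50, 0.72 and 0.37 of high-fertile bulls 2, 3 and 5. Its difference was -0.39 with an unadjusted p of 0.19 in limma. ZNF3 held 0.01, -0.06 and 0.04 in the subfertile bulls and 0.55, 0.08 and 0.12 in high-fertile bulls 2, 3 and 5, a difference of -0.25 with a p of 0.384 in limma. High-fertile bull 2 alone was set well apart there.

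The smallest p between the groups belonged to ZNF444, at which subfertile bulls 1, 4 and 5 had -0.42, -0.60 and -1.20 and high-fertile bulls 2, 3 and 5 had -1.88, -3.29 and -0.85. Its difference was 1.27 with an unadjusted p of 0.0736 and an adjusted p of 1.0 in limma. The IP signal of its lone probe was well above background on none of the 3 arrays of the first date, so no fold is given. Next by p on the higher side came ZNF500 (1.13), ZNF394 (0.87), ZBTB49 (0.58) and ZNF677 (0.38). On the lower side were ZNF524 (-0.59), ZNF335 (-0.66), ZNF2, ZSCAN21 (-0.52) and ZNF45 (-0.85). IP was well above background at ZNF500 on none of the arrays of the first date and at ZSCAN21 on none of the high-fertile arrays, so these 2 differences rest on values that were not measured above background.

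Within the later dates, where high-fertile bull 5 stands alone against subfertile bulls 1 and 5 and its spread is taken from the other arrays, 3 of the 89 genes passed the test, all higher in the subfertile bulls, with the background at 1.8% of 4286 genes. ZBTB43, which in mouse acts on Z-DNA in prospermatogonia, held -0.25 and -0.91 in the subfertile bulls and -2.36 in the high-fertile bull. ZNF572 held -0.48 and -0.57 in the subfertile bulls and -2.04 in the high-fertile bull. At both ZBTB43 and ZNF572 the IP signal of high-fertile bull 5 was not well above background, so its low values there were not measured above background. ZSCAN16 held -0.50 and -0.40 in the subfertile bulls and -1.51 in the high-fertile bull. Each rests on 1 probe, and none of the 3 passed within the first date, where subfertile bull 4 stands alone against high-fertile bulls 2 and 3. An interaction of group and session passed for none of the 89 genes in limma, and ZNF335 alone had an unadjusted p below 0.05 (0.0346).

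**Figure D1:**
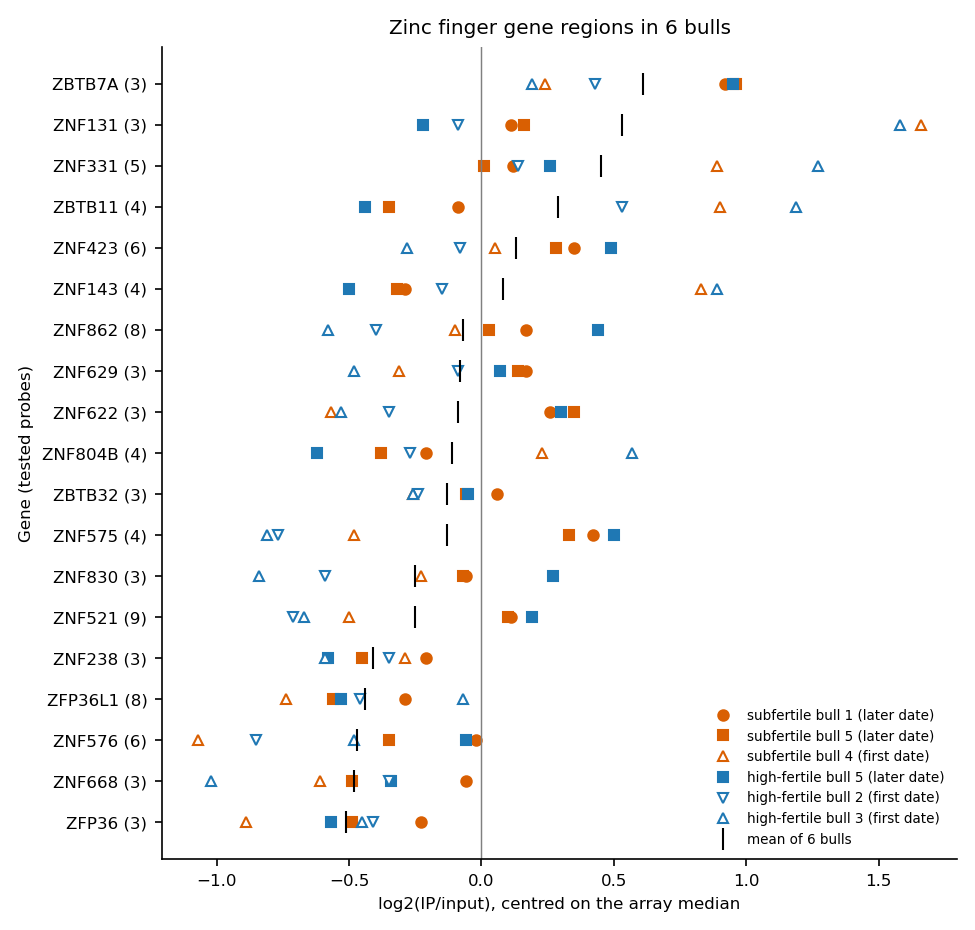
Log2(IP/input), centred on the array median, of the 19 zinc finger gene regions in each of the 6 bulls, with the number of tested probes beside each gene. Orange marks are subfertile and blue marks high-fertile bulls, filled marks are later scan dates and open marks the first date, and a black bar is the mean of the 6 bulls. Colours mix in every row. Filled marks lie wholly above open ones in 10 regions, among them ZNF575, ZNF521, ZNF622 and ZBTB7A. They lie wholly below in 2, ZBTB11 and ZNF143.

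Values differed by scan date in both directions, in zinc finger genes as over the whole array. Of the 19 regions, 5 were higher on the later dates than on the first (background 14.0% of 737 regions) and 3 were lower (background 6.78%). The fit held the fertility group as a second term, and differences are later minus first. Their median over the 19 regions was 0.34, against 0.17 over all 737. The 3 bulls of the later dates lay wholly above the 3 of the first date in 10 regions (background 35.7%) and wholly below in 2 (background 10.2%). Because the arrays' medians over tested probes also differed by date, centring each array on its tested probes lowered all of these differences, with a median of 0.10 in the 19 regions and -0.07 over all. Under that centring ZNF575 remained higher (0.83), and ZBTB11 (-1.44), ZNF131 (-1.49) and ZNF143 (-1.24) remained lower and were joined by ZNF804B (-0.89), while ZNF622, ZNF576, ZNF521 and ZBTB7A no longer passed (backgrounds 3.53% higher and 11.1% lower). IP spots of the 19 regions were well above background at 251 of 255 on the later dates, against 202 of 255 on the first, and the part of this in the differences was not tested. With no filter on the input signal the balance turned: 3 of 63 zinc finger regions were higher on the later dates and 36 lower, with a median of -0.82, which was also the median over all 2779 regions.

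ZNF575 had the largest rise among the regions. It held 0.42, 0.33 and 0.50 in subfertile bulls 1 and 5 and high-fertile bull 5, against -0.48, -0.77 and -0.81 in subfertile bull 4 and high-fertile bulls 2 and 3. The dates did not overlap, and the difference was 1.07 ± 0.18 (SE, 3 bulls per date, adjusted p = 0.00945 in limma). All 4 of its probes, shown above with 3, 2, 1 and 0 CpGs, had differences between 0.90 and 1.17. With the gene's untested probes included the difference was 0.18 and did not pass.

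ZNF622, which encodes a factor that helps mature the large ribosomal subunit, held 0.26, 0.35 and 0.30 on the later dates and -0.57, -0.35 and -0.53 on the first, in the same order of bulls. Its difference was 0.81 ± 0.18 (adjusted p = 0.0197 in limma). Here the 3 probes disagreed in size, at 1.56, 0.56 and 0.30, and the IP signal of the first of them was well above background on no array of the first date.

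ZNF576 lies 79158 bp from ZNF575 on chromosome 18. It held -0.02, -0.35 and -0.06 on the later dates and -1.07, -0.85 and -0.48 on the first, a difference of 0.75 ± 0.20 (adjusted p = 0.0311 in limma). It did not pass with normexp background correction (0.26) or with IP also well above background (0.38). ZNF428, 18980 bp further on, has 1 tested probe with a difference of 0.71 that did not pass (adjusted p = 0.128 in limma).

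ZNF521, a regulator of neural and blood progenitors with 9 tested probes, held 0.11, 0.10 and 0.19 on the later dates and -0.50, -0.71 and -0.67 on the first. The difference was 0.74 ± 0.18 (adjusted p = 0.0238 in limma). Its probes ranged from -0.18 to 1.64, and 3 of the 9 passed the probe test, all higher. IP was well above background at 27 of 27 of its spots on the later dates and at 17 of 27 on the first.

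ZBTB7A, a repressor of fetal globin genes in red cell precursors, held 0.92, 0.96 and 0.95 on the later dates and 0.24, 0.43 and 0.19 on the first. It lay above the array median in all 6 bulls, and the later bulls were alike to within an SD of 0.02. The difference was 0.67 ± 0.18 (adjusted p = 0.0307 in limma). Its IP signal was well above background at every spot on every array.

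The 3 lower regions were ZNF131, ZBTB11 and ZNF143. ZNF131, a further factor with a BTB domain, held 0.11, 0.16 and -0.22 in subfertile bulls 1 and 5 and high-fertile bull 5, against 1.66, -0.09 and 1.58 in subfertile bull 4 and high-fertile bulls 2 and 3. High-fertile bull 2 lay among the later bulls, so the dates overlapped. The difference was -1.25 ± 0.38 (adjusted p = 0.0460 in limma). It did not pass with normexp (-0.39), with the median over probes (-1.34) or with session as the only term (-1.04).

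ZBTB11 held -0.09, -0.35 and -0.44 on the later dates and 0.90, 0.53 and 1.19 on the first, with no overlap and a difference of -1.20 ± 0.22 (adjusted p = 0.0107 in limma). ZNF143, an activator of small nuclear RNA genes that also sits at chromatin loops, held -0.29, -0.32 and -0.50 on the later dates and 0.83, -0.15 and 0.89 on the first. Its difference was -1.0 ± 0.27 (adjusted p = 0.0325 in limma), again without overlap.

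Calls by date rest on few arrays. None of the 8 regions passed with subfertile bull 1 left out, where 1 of all 737 regions did. ZBTB11 and ZNF575 alone passed with subfertile bull 5 left out, against 53 of the 737. All 8 passed with high-fertile bull 2 or 3 left out, against 249 and 217 of the 737. The date fit holds the group as a term. Without subfertile bull 4 its date difference therefore sets high-fertile bull 5 alone against bulls 2 and 3 of that group. With high-fertile bull 5 left out, it sets subfertile bull 4 alone against bulls 1 and 5. No call is read from these fits, because a loss of calls there cannot be told from the loss of arrays. In the fit over 4286 genes, ZNF575, ZBTB11 and ZNF622 passed and the other 5 did not. The differences themselves kept their sign with each bull left out, with ZNF575 between 0.85 and 1.29, ZBTB11 between -1.33 and -1.05 and ZNF131 between -1.65 and -0.93.

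**Figure D2:**
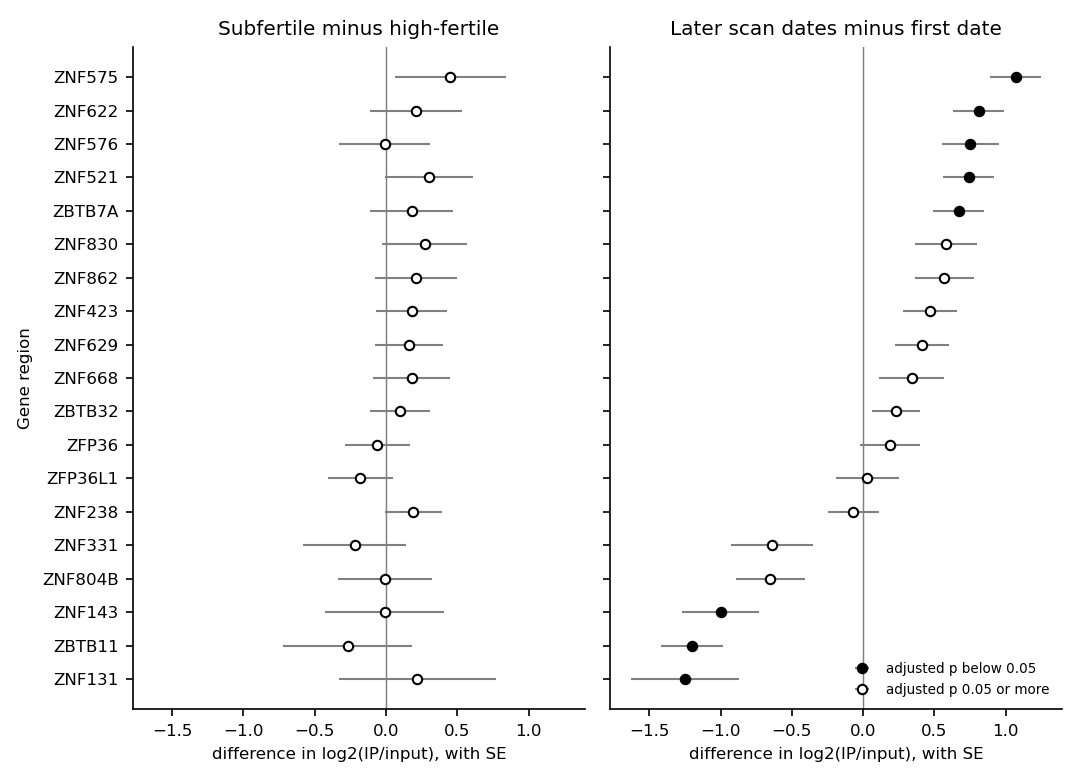
Differences in log2(IP/input) of the 19 zinc finger gene regions with their SE, for subfertile minus high-fertile bulls on the left and later scan dates minus the first date on the right. Filled points have an adjusted p below 0.05 in limma. No region is filled on the left, and 5 higher and 3 lower regions are filled on the right.

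Probes of one region could differ in direction or size. In ZBTB11, probes 1 and 4 were lower on the later dates, with differences of -2.09 and -3.46, while probe 7, farther along the chromosome, was higher with 1.98, and all 3 passed the probe test. Of the 170 tested probes, 16 were higher on the later dates (background 6.5% of 110686 probes) and 15 were lower (background 1.58%). That background is over all probes, named or not, and the share among other named probes was not counted. The median difference of tested probes (mean of the later bulls minus mean of the first) was 0.06 in zinc finger genes, 0.10 in other named probes and 0.27 in all probes. Probe 4 of ZBTB11 held -0.38, -0.68 and -1.73 in subfertile bulls 1 and 5 and high-fertile bull 5, against 2.80, 1.5 and 2.19 in subfertile bull 4 and high-fertile bulls 2 and 3 (adjusted p = 0.0273 in limma). Probe 7 held 0.85, 0.48 and 0.60 on the later dates and -2.09, -0.84 and -0.37 on the first (adjusted p = 0.0314 in limma), where its IP signal was well above background on 1 of 3 arrays.

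In ZNF143 some probes were lower on the later dates and others differed little. Probe 2, with 1 CpG, held -0.67, -1.19 and -1.09 on the later dates and 2.13, 0.97 and 2.33 on the first, and fell by 2.90 (adjusted p = 0.0273 in limma). Probes 3 and 4, which lie close together farther along the chromosome, had differences of -0.06 and 0.05. Probe 1 had a difference of -1.09 (adjusted p = 0.0902 in limma), so the low mean of the region rests on its first 2 probes.

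In ZNF131, probe 1 held 0.01, 0.38 and -0.72 on the later dates and 3.40, 0.59 and 2.83 on the first, and fell by 2.82 (adjusted p = 0.0324 in limma). Probe 4, with 5 CpGs, had 0.50, -0.08 and 0.52 on the later dates and 0.14, -0.66 and 0.00 on the first, a difference of 0.46 that did not pass. ZNF804B, whose region did not pass, had 3 overlapping probes with differences of 0.05, -0.29 and -0.46. Its probe 7, without a CpG, held -0.19, -0.27 and -0.44 on the later dates and 1.55, 1.34 and 1.74 on the first, and fell by 1.88 (adjusted p = 0.0273 in limma). In ZNF423, a factor of adipocyte and cerebellar development, probe 5 alone passed among 6, with a rise of 1.47 (adjusted p = 0.0302 in limma).

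**Figure D3:**
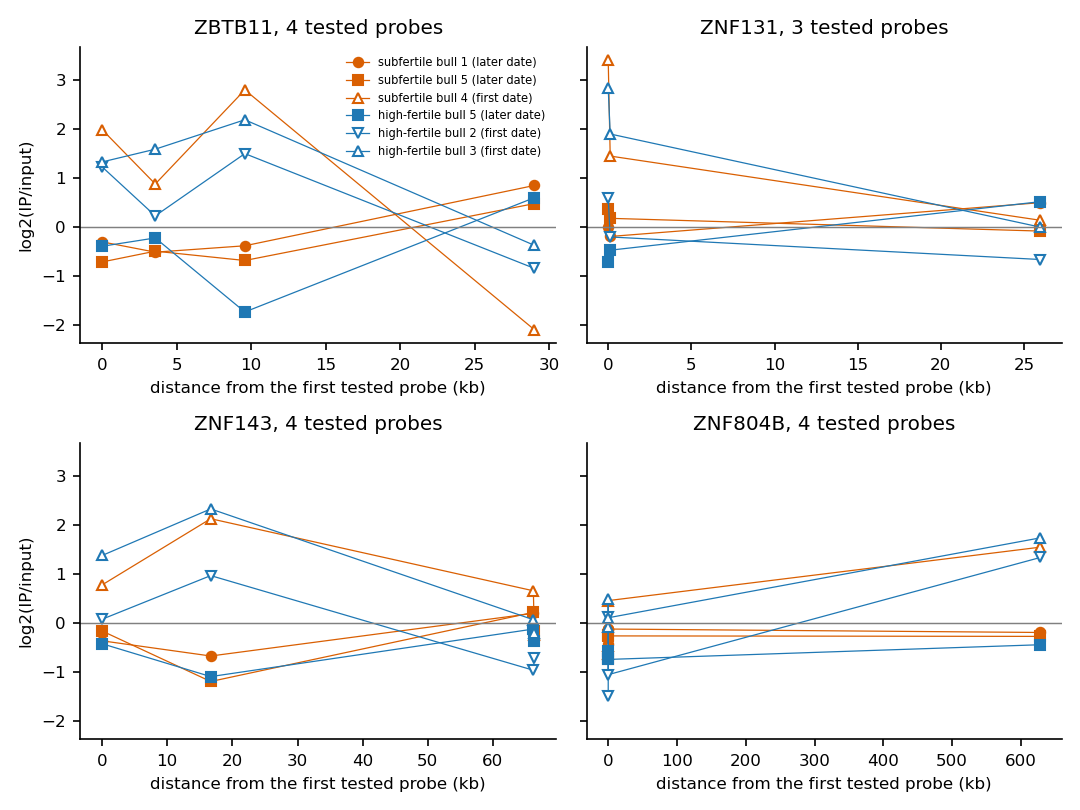
Log2(IP/input) of the tested probes of ZBTB11, ZNF131, ZNF143 and ZNF804B in each bull, against distance in kb from the gene's first tested probe. Orange is subfertile and blue high-fertile, with filled marks for later scan dates and open marks for the first date. The open marks reach 2.80 in ZBTB11 and 3.40 in ZNF131 at some probes and lie with or below the filled marks at others.

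Genes with 1 or 2 tested probes added larger differences by date. Among all 89 genes, 7 were higher on the later dates (background 7.3% of 4286 genes) and 12 were lower (background 12.8%), with 43 differences above 0 and 46 below. The dates did not overlap in 25 genes that were higher (background 25.3%) and in 21 that were lower (background 23.2%). As shares of the 89 genes, these counts by date lie near their backgrounds, so they mark no trait of zinc finger genes. The 5 largest falls were in genes with 1 tested probe each. That probe held no CpG in ZNF572, ZNF292 and ZNF474, and 3 CpGs in ZNF644 and ZNF326. ZNF572 fell by 2.90, holding -0.48, -0.57 and -2.04 on the later dates and 1.88, 0.76 and 1.95 on the first (adjusted p = 0.0106 in limma). The IP signal of its probe was not well above background in high-fertile bull 5. With that signal set to the lowest one measurable there, the mean of the later dates was -0.76, against 1.53 on the first.

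ZNF292, a factor with many zinc fingers, fell by 2.88 and held -0.30, -0.82 and -1.0 on the later dates and 2.32, 0.95 and 2.79 on the first. ZNF644, a partner of the histone methyltransferase pair EHMT1 and EHMT2, fell by 2.69, from a probe with 3 CpGs that held -0.44, -0.26 and -0.98 on the later dates and 2.34, 1.38 and 2.04 on the first. ZNF326, part of a complex that couples transcription with splicing, held -0.03, 0.07 and -0.34 on the later dates and 2.48, 1.79 and 3.07 on the first, and fell by 2.62. None of these overlapped.

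ZNF474, known in human and mouse as a testis-specific zinc finger gene, held -0.24, -0.50 and -0.72 on the later dates and 2.09, 0.87 and 3.1 on the first, and fell by 2.58 (adjusted p = 0.0255 in limma). The remaining falls were in ZNF192 (-2.40), ZBTB43 (-2.07), ZSCAN12 (-2.00), ZNF565 (-1.95), ZNF12 (-1.94) and ZNF286A (-1.06), beside ZBTB11. Tested probes of ZNF192 and ZSCAN12 held no CpG, while ZBTB43, ZNF565, ZNF12 and ZNF286A had CpGs in theirs. In high-fertile bull 5, IP was well above background at neither ZBTB43 nor ZSCAN12. At ZBTB43 it was so on 1 of 3 arrays of the first date. The 12 adjusted p-values ran from 0.00989 to 0.0353, the lowest in ZNF644.

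Among the rises, ZNF394 held 1.15, 0.87 and 0.61 on the later dates and -0.36, -0.66 and -0.89 on the first, a difference of 1.38 (adjusted p = 0.0129 in limma). ZNF48 rose by 1.24, ZNF526 by 0.89 and ZNF296, which in mouse marks pluripotent cells, by 0.82, beside ZNF575 and ZNF622. ZNF687 passed with 0.56, 0.58 and 0.76 on the later dates and -1.06, -0.82 and 0.05 on the first (adjusted p = 0.0267 in limma). Its IP signal was well above background on no array of the first date, and with the signal set to the lowest one measurable there the difference is not above 0, so no fold is given. Of the 19 genes past the test, 6 passed with subfertile bull 5 left out and 7 with subfertile bull 1 left out. With high-fertile bull 3 left out 16 passed, and with high-fertile bull 2 left out all 19 did. Over all 4286 genes, 196, 332, 912 and 1372 passed in the same order. No call is read without subfertile bull 4 or high-fertile bull 5, for the reason given for regions.

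Levels over all 6 bulls were below the array median in 13 of the 19 regions and above it in 6. The mean of the 6 bulls was tested against 0, and 1 of the 19 regions was higher (background 1.09% of 737 regions) and 5 were lower (background 23.3%). The median of the 19 levels was -0.11, against -0.18 over all regions. Because the median over tested probes lies below 0 on every array, centring on the tested probes put the median of the 19 levels at 0.05 and that of all regions at -0.02. ZBTB7A was then still higher (0.78) and none of the 5 was lower (backgrounds 3.66% higher and 8.14% lower). With no filter on the input signal the direction turned, with a median level of 0.41 over 63 zinc finger regions, 48 of them above 0, and of 0.31 over all regions, and none of the 6 calls held.

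ZBTB7A had the highest level, 0.61 ± 0.37 (SD, n = 6 bulls, adjusted p = 0.0128 in limma), and its 3 probes had 3, 5 and 4 CpGs. It remained past the test whichever bull was left out, but not with normexp (0.27), with no filter on input (0.61) or in the fit over 4286 genes (adjusted p = 0.0533 in limma). In that last fit ZFP36 alone of the 6 regions passed. Next were ZNF131 at 0.53 ± 0.85, ZNF331, an imprinted gene in human, at 0.45 ± 0.51, and ZBTB11 at 0.29 ± 0.68, none of which passed. In all 3, subfertile bull 4 and high-fertile bull 3 were the highest, at 1.66 and 1.58 in ZNF131, 0.89 and 1.27 in ZNF331 and 0.90 and 1.19 in ZBTB11. These neighbours in the order do not differ beyond their spread.

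Of the CCCH genes, ZFP36 had the lowest level of the 19 regions. It held -0.23, -0.89 and -0.49 in subfertile bulls 1, 4 and 5 and -0.41, -0.45 and -0.57 in high-fertile bulls 2, 3 and 5, with a level of -0.51 ± 0.22 (SD, n = 6, adjusted p = 0.00968 in limma). ZFP36L1, over 8 probes, held -0.29, -0.74 and -0.56 in the subfertile bulls and -0.46, -0.07 and -0.53 in the high-fertile bulls, with a level of -0.44 ± 0.23 (adjusted p = 0.0165 in limma). Both were below the array median in all 6 bulls, and neither passed the test by group or by date. ZFP36L2, with 2 probes, had a level of -0.37.

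The other low regions were ZNF668, which acts in the response to DNA damage, at -0.48 ± 0.32, ZNF576 at -0.47 ± 0.42 and ZNF238 at -0.41 ± 0.16. ZNF238 encodes a transcriptional repressor that acts in neuronal differentiation. ZNF238 held -0.21, -0.29 and -0.45 in the subfertile bulls and -0.35, -0.59 and -0.58 in the high-fertile bulls, and its IP was well above background at 5 of 9 spots of the first date. The adjusted p-values of the 3 regions were 0.0222, 0.0454 and 0.0134 in limma. Leaving out subfertile bull 5 ended the calls of ZNF668, ZNF576, ZNF238 and ZFP36L1. Leaving out subfertile bull 4 ended those of ZNF668, ZNF576 and ZFP36L1, and leaving out high-fertile bull 2 or 3 that of ZNF576.

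The remaining regions stood between these, with ZNF423 at 0.13 ± 0.29, ZNF143 at 0.08 ± 0.62, ZNF862 at -0.07 ± 0.37 and ZNF629 at -0.08 ± 0.26. ZNF622 was at -0.09 ± 0.44, ZNF804B at -0.11 ± 0.43, ZBTB32, a repressor in lymphocytes, at -0.13 ± 0.14 and ZNF575 at -0.13 ± 0.62. ZNF830, a nuclear factor tied to splicing, was at -0.25 ± 0.40 and ZNF521 at -0.25 ± 0.42 (SD, n = 6 each).

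Among all 89 genes, 1 level was higher than the array median (background 0.933% of 4286 genes) and 12 were lower (background 7.82%). ZNF304, a KRAB-type repressor, held 0.28, 0.67 and 0.90 in subfertile bulls 1, 4 and 5 and 0.65, 0.85 and 0.45 in high-fertile bulls 2, 3 and 5, above the array median in each bull, with a level of 0.64 ± 0.23 (adjusted p = 0.0314 in limma). The highest levels otherwise were those of ZNF326 (1.17), ZNF474 (0.77), ZNF644 (0.68), ZNF565 (0.67) and ZNF292 (0.66), all with their high values on the first date and none past the test.

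Of the lower genes, ZNF362 had the values -0.57, -1.17 and -1.26 in the subfertile bulls and -0.34, -1.42 and -1.01 in the high-fertile bulls, a level of -0.96 ± 0.42 (adjusted p = 0.0228 in limma). ZNF200 held -0.85, -0.68 and -1.07 in the subfertile bulls and -1.40, -0.60 and -0.81 in the high-fertile bulls, a level of -0.90 ± 0.29 (adjusted p = 0.0197 in limma). The 12th lower gene was ZFP36, described above. ZNF335, which works with a histone methyltransferase complex in neural progenitors, had a level of -0.96 ± 0.61. It was low in all but high-fertile bulls 2 and 3, at -0.06 and -0.31.

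ZBTB7B, the factor that sets the helper T cell fate, was at -0.61 and ZBTB48, which binds telomeres, at -0.64. ZBTB1 was at -0.53, ZNF570 and ZNF777 at -0.79 each and ZNF593 at -0.58. ZSCAN21 (-1.06) and ZNF828 (-0.72) also passed, but IP was well above background on 2 and 1 of the 6 arrays there. Signal was limited at some of the others too. On the first date IP was well above background on 1 of 3 arrays at ZNF777 and at ZBTB7B, and at 2 of 6 spots of ZNF335. ZNF444 had the lowest level of all, -1.37 ± 1.07, and did not pass as a gene. None of the 13 genes past the test of levels passed with subfertile bull 1, subfertile bull 5 or high-fertile bull 5 left out. With subfertile bull 4 left out 1 passed, with high-fertile bull 2 left out 3 passed, and with high-fertile bull 3 left out 4 passed. At single probes, 6 of the 170 were higher than the array median (background 3.53%) and 26 were lower (background 17.6%).

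Differences by date went with the CpGs in a probe and with its G and C content. The 20 tested probes without a CpG had a median difference (mean of the later bulls minus mean of the first) of -0.51, the 77 with 1 or 2 CpGs of -0.04, the 61 with 3 or 4 of 0.50 and the 12 with 5 or more of 0.51. In the other named probes the same classes had -0.72, -0.01, 0.32 and 0.39, so the order was shared. Across the 170 probes the Spearman correlation between the number of CpGs and the difference was 0.40, and across 7474 other named probes it was 0.40 as well. With the share of G and C it was 0.38 in the 170 probes and 0.28 in the others, and that share was 47.2%, 50.3%, 51.4% and 50.4% in the 4 CpG classes of zinc finger probes. Neighbouring probes share fragments and all probes share the arrays, so these are descriptions. Among probes past the test by date, the 15 that fell held 0 CpGs in 6 cases, 1 or 2 in 6 and 3 or more in 3. The 16 that rose held 0 CpGs in 1 case, 1 or 2 in 5 and 3 or more in 10.

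Levels ran the other way, with medians of 0.16, -0.07, -0.22 and -0.33 from the CpG-free to the CpG-rich class of zinc finger probes. Other named probes had -0.11, -0.13, -0.19 and -0.28 in the same classes, so the order was shared. The CpG-free class of zinc finger genes holds only 20 probes. In these probes the medians by array were -0.24, 0.48 and -0.26 in subfertile bulls 1, 4 and 5 and 0.07, 0.52 and -0.46 in high-fertile bulls 2, 3 and 5. The bulls of the first date were thus the high ones there. The probes of zinc finger genes were otherwise like other named probes, with 1.45 against 1.5 CpGs on average, 33.3% against 33.1% without a CpG and 45.3% against 45.6% G and C. Those left untested were poorer, with 0.95 CpGs and 42.0% G and C against 2.21 and 50.3% in the tested ones.

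**Figure D4:**
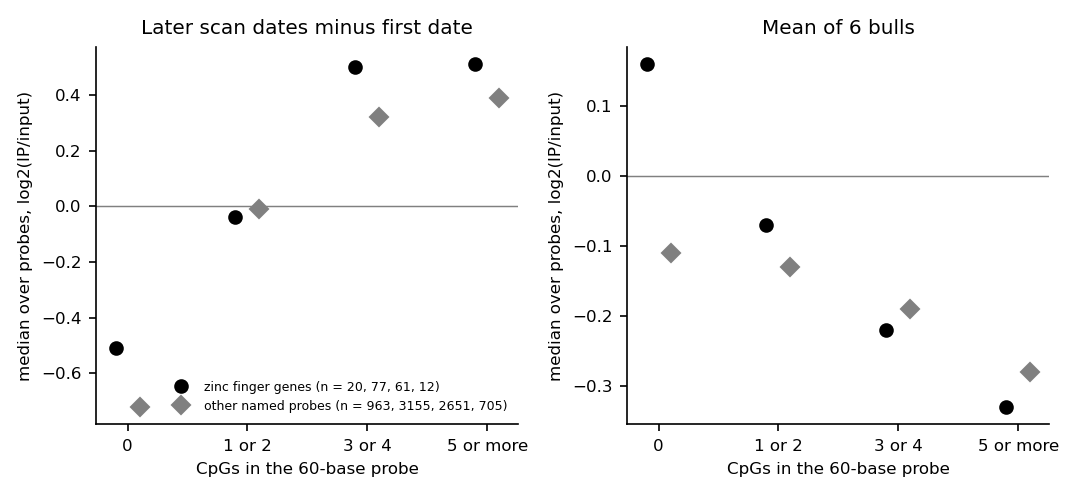
Medians over tested probes by the number of CpGs in the 60-base probe, for zinc finger genes (black circles) and other named probes (grey diamonds), of the later minus first scan date difference on the left and of the mean of 6 bulls on the right. Differences by date run from -0.51 without a CpG to 0.51 with 5 or more in zinc finger genes, and levels from 0.16 to -0.33.

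Zinc finger genes are known to lie in clusters, and they did so here. Chromosome 18, as the files number it, held 38 of the 151 genes (25.2%) and 5.21% of all named genes. Chromosome 25 held 17 (11.3% against 3.28%), and chromosomes 23 and 19 held 9 each. In 33 cases the probes of neighbouring members lay within 100000 bp of each other, 14 of them on chromosome 18, and in 13 of the 33 both genes had a tested probe.

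Neighbours had like differences by date in some of these 13 pairs and unlike ones in others, and the pairs given here are examples. ZNF394 and ZKSCAN5, whose probes lie 365 bp apart on chromosome 25, were both higher, by 1.38 and 0.68. ZKSCAN5 did not pass (adjusted p = 0.206 in limma). ZNF192 and ZSCAN16, 26657 bp apart on chromosome 23, had -2.40 and -1.54. In contrast, ZNF514 and ZNF2, 12016 bp apart on chromosome 11, had -1.10 and -0.13, and ZNF286A and ZNF287, 50699 bp apart on chromosome 19, had -1.06 and 0.04.

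**Figure D5:**
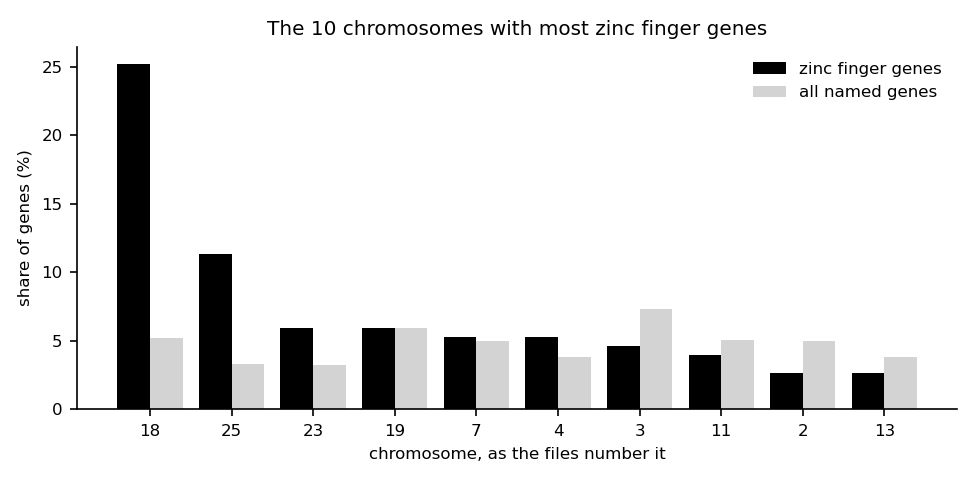
Share in percent of the 151 zinc finger genes (black bars) and of all 7932 named genes (grey bars) on each of the 10 chromosomes with most zinc finger genes. Chromosome 18 holds 25.2% of the zinc finger genes and 5.21% of all named genes.

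Genes of the machinery that zinc finger repressors work with were followed from a list of 45, of which 16 were on the array and 3 formed regions. NCOR1, a co-repressor bound by BTB domains, EHMT1, a histone methyltransferase, and PATZ1, a BTB factor, had levels of -0.51, -0.50 and -0.49, and all 3 passed as lower than the array median (background 23.3%). In the fit over 4286 genes none of the 3 passed, with adjusted p-values of 0.0614, 0.0615 and 0.0897 in limma. None of the 10 list members with a tested probe passed between the fertility groups. In that fit BCL6B, a BTB factor needed in spermatogonial stem cells of mice, was higher on the later dates (1.11, adjusted p = 0.0323 in limma), and SALL4, a factor of the same cells, was the lowest of the 10 in level at -0.90 (adjusted p = 0.0228 in limma).

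Known sperm marks were read as a check of the cells, since ZFP57 and ZNF445 act at such genes. Genes methylated on the paternal copy, which should be methylated in sperm, had levels of 0.08 for RTL1 and -0.15 for RASGRF1 as regions, and 0.05 for H19 and -0.09 for MEG3 with 1 or 2 tested probes. Genes methylated on the maternal copy, which should not be, had -0.74 for SGCE (lower than the array median, adjusted p = 0.021 in limma over 4286 genes), 0.02 for PEG10 and 0.28 for IGF2R as regions, and -0.24 for PLAGL1 with 1 tested probe. The 2 kinds overlapped. Probes were taken by gene name and were not placed within the imprinted regions. The overlap therefore cannot tell whether these arrays part methylated from unmethylated sites. Of 7 leukocyte genes 2 had a tested probe, RUNX3 at -0.16 and PTPRC at -0.05, and of 6 epithelial genes 4 did, with levels from -0.39 to 0.56. None passed between the fertility groups, and the part of other cells in the values was not tested.

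The filter on input signal set apart the 257 untested probes and the 62 genes without a tested probe, so dim input there follows from the filter. IP was well above background on no array at 128 of these 257 probes. At 2 of them, in ZNF644 and ZNF527, it was well above background on all 6 arrays although input was not. Of the 170 tested probes, 86 had IP well above background on all 6 arrays.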

How the data were processed

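The deposited scanner tables hold spot intensities of both dyes, which Agilent Feature Extraction 10.7.3.1 detrended and dye-normalized linearly, per the file headers. The deposited log10 ratio of a spot is Cy5 over Cy3, and the deposited series table holds that ratio as log2, which matched the scanner files within 0.001 at 177439 probes. The match settles its direction and scale, it was not centred (column medians from -0.04 to 0), and it served as an alternative.

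Here log2 of the processed IP over input signal was centred per array by subtracting the median of the non-control probes, with no loess step. R 4.3.3 with limma 3.58.1 ran 2-sided moderated fits, with p-values adjusted by Benjamini-Hochberg over all features and a threshold of 0.05, for 737 gene regions of at least 3 tested probes, 4286 genes with at least 1 and 110686 probes. The group test had no other term, the date test had the group as a second term, and levels were tested without terms. Fits were tested on simulated data. Gene names stand in 3 of the 6 files and were carried over by spot and sequence. The members, lists and tests were chosen with earlier results of these data known. Every region is named, and of genes with 1 or 2 tested probes the 5 highest and lowest levels, the 5 smallest p by group and the 5 largest differences by date in each direction, and any that passed. The script language was Python 3.11.15, with plots in matplotlib 3.10.9.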

Additional observations from a re-analysis of the deposited data

Results flagged for a closer look

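At 2 probes outside the tests, whose input signal was not well above background on every array, the immunoprecipitated DNA passed that test on all 6 arrays. The ZNF644 probe at chr3:55763990-55764049, with 2 CpGs, had a mean log2(IP/input) of 1.45, and its input passed on 5 arrays. The ZNF527 probe at chr18:46846773-46846832, with 1 CpG, had a mean of 1.69, and its input passed on 4 arrays. Neither value is set against the levels of tested probes, and the cause was not tested.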

How the results depend on the processing

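No paired analysis was possible because the groups share a single replicate number. Between the fertility groups no region, probe or zinc finger gene passed under any setting run, except among the later arrays alone, where 4 of 737 regions and 3 zinc finger genes did. ZNF575 was then -0.12, and ZBTB11 by group was 0.22 there, 0.04 among the first arrays, 0.13 with a session block and between -0.71 and 0.10 with a bull left out. By date, 153 regions passed (103 higher, 50 lower), against 1597 with no filter on input (70 higher, 1527 lower), 95 with IP also above background, 290 with normexp, 861 with at least 1 probe and 108 centred on tested probes (26 higher, 82 lower). Leaving out a bull gave 0 to 249. Probes by date numbered 8941, against 3116 with no filter, 33436 with normexp, 16789 with session as the only term and 0 to 20318 with a bull left out. Zinc finger regions by date numbered 8, against 39 with no filter (3 higher, 36 lower), 5 centred on tested probes, 19 with at least 1 probe, 4 with the median over probes and 0 to 11 with a bull left out, and zinc finger genes numbered 19, against 53 with no filter (4 higher, 49 lower) and 0 to 32 with a bull left out. With no filter ZNF521 turned to -0.01 and ZNF575 was 0.18. For levels, 180 regions passed (8 higher, 172 lower), against 2 with no filter, 45 with the IP filter, 288 with normexp, 87 centred on tested probes (27 higher, 60 lower), 375 with at least 1 probe, 324 with balanced terms and 101 to 199 with a bull left out. Probes numbered 23431, against 38249 with balanced terms and 10037 to 19588 with a bull left out. Zinc finger regions numbered 6, against 0 with no filter, 2 with the IP filter, 1 centred on tested probes, 13 with at least 1 probe, 10 with balanced terms and 2 to 6 with a bull left out, and zinc finger genes 13, against 5 with no filter, 24 with balanced terms and 0 to 4 with a bull left out. Without a filter 113 of 151 zinc finger genes lay above 0 (median 0.35), ZBTB7B at 0.30 and ZNF200 at 0.28. The cause of these shifts was not tested. The ranges by date include the fits without subfertile bull 4 or high-fertile bull 5, from which no call is read. The settings for genes with at least 1 probe were added after seeing the data. Few arrays, dim IP on the first date and overlapping probes limit every value.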
